A study of Mus musculus with 6 samples.

Results

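The comparison set 2 left ventricles of Kdm3a knockout mice (KO TAC) against 2 left ventricles of wild-type mice (WT TAC), all taken after transverse aortic constriction (TAC), the surgical narrowing of the aorta that loads the left ventricle with pressure. Members were all genes named in the array annotation that rose above background. That left 9625 of the 19057 genes on the array. A gene was called only when it passed the test across all genes and when both KO TAC arrays lay on the same side of both WT TAC arrays, so that all 4 array pairs agreed in direction. By this rule the groups of a called gene never overlap.

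The whole series holds 6 arrays, 1 of each sham-operated genotype (WT Sham, KO Sham) beside the 4 TAC arrays. Per the labels all mice were male c57/BL6, operated on at an age of 6 to 8 weeks, and their left ventricles were frozen 3 weeks after surgery. The study's text gives a later week for its profiling and describes the KO mice as carrying the deletion in every cell, bred on a mixed FVB and C57 background and studied beside littermates, with a separate line made in C57/Bl6J. Which mice gave these arrays cannot be told from the labels, nor do the labels say that replicates came from separate animals, so the p-values reflect how much single arrays differed, and some of that may be technical.

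Kdm3a removes methyl groups from lysine 9 of histone H3, a mark that sits on silent genes, and so works as a coactivator of transcription. It is known as a hypoxia-induced enzyme and as a regulator of fat metabolism in mice. A ventricle under pressure load is known to switch on fetal contractile and natriuretic peptide genes, to lay down matrix, to draw in immune cells, and to turn away from burning fatty acids, and the comparison asks how far the 2 genotypes differ in those programs once both have been banded.

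Kdm3a was read by 4 probes. ILMN_3118169 read 296 and 264 on the WT TAC arrays and 137 and 143 on the KO TAC arrays, where it was below background (fitted log2 fold change -2.27, limma adjusted p 0.000234). ILMN_3043245 read 299 and 313 against 231 and 222 (-0.72, adjusted p 0.00856), ILMN_2707895 read 466 and 486 against 394 and 362 (-0.44, adjusted p 0.0498), and ILMN_2556191 was below background on all arrays. These p-values were adjusted over all kept probes. In the limma fit by gene, where ILMN_2707895 stood for Kdm3a as its brightest probe, the adjusted p was 0.0436. The labels do not say which exons were removed. The background level lay between 149.0 and 155.1 intensity units on the 6 arrays. Both WT TAC arrays lay away from the remaining 4: array correlations were 0.917 to 0.931 across that divide, against 0.984 to 0.995 among the 4 and 0.993 within the WT TAC pair.

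After TAC, 2077 genes (21.6%) were higher in KO than in WT and 1884 (19.6%) were lower, by limma at an adjusted p under 0.05 with all 4 pairs agreeing. Without the test, all 4 pairs ran higher in 3780 genes (39.3%) and lower in 3296 (34.2%), and the groups overlapped in 2549 (26.5%). The lower genes differed more widely than the higher ones: 830 of them (8.62% of genes tested) passed 2-fold, 230 passed 4-fold, 79 passed 8-fold and 35 passed 16-fold, against 612 (6.36%), 62, 11 and 2 of the higher genes. With the deposited intensities taken without further background correction, 455 lower and 245 higher genes passed 2-fold. The median difference over all genes was 0.04 on the log2 scale. Replicates differed by a median of 0.16 log2 units in either genotype, and 13 genes differed more than 2-fold between the WT TAC replicates and 101 between the KO TAC replicates. Without WT TAC replicate 2 the counts were 1038 higher and 1091 lower, and without WT TAC replicate 1 they were 1322 higher.

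**Figure D1:**
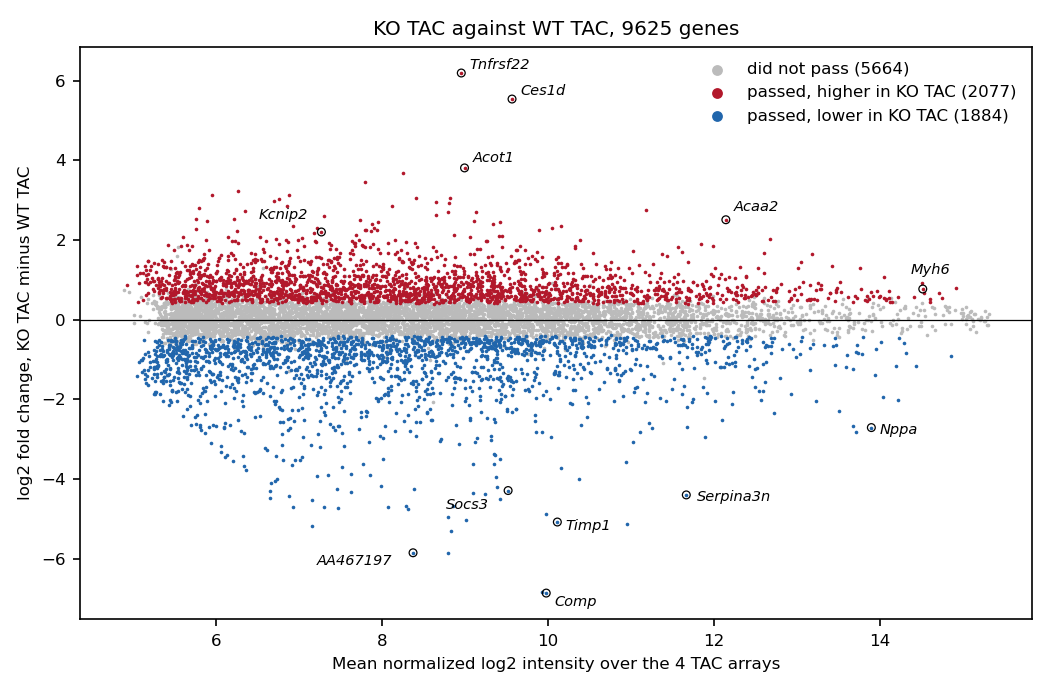
Difference between KO TAC and WT TAC (log2 fold change, vertical axis) against the mean normalized log2 intensity of the 4 TAC arrays (horizontal axis), 1 point per gene. Colours mark the 2077 genes that passed higher in KO TAC and the 1884 that passed lower, and circled genes are named. The cloud reaches further down than up, to -6.87 for Comp against 6.19 for Tnfrsf22.

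Of the higher genes, 223 were below background on both WT TAC arrays, and of the lower genes 341 were below background on both KO TAC arrays. Folds of these genes are given as lower bounds, taken on the deposited intensities with nothing subtracted: the mean of the brighter group over that of the dim one, with a dim reading raised to the lowest intensity above background on its array where it fell under it. A plus-minus sign gives the standard error on the log2 scale, and intensities are the deposited values of single arrays, those of WT TAC replicates 1 and 2 first and those of KO TAC replicates 1 and 2 after the word against. Counts without either array of a group are those with each of the 2 left out in turn. All other folds were taken after the background had been subtracted, so that for dim genes they exceed the ratio of the intensities beside them. Among the genes named below, those that rose above background on a single KO TAC array include Ch25h, Col1a2, Egr2, Hbb-b2, Krt8, Mbp, Pdk3 and Plaur. For each gene list, the shares over all genes, 19.6% lower and 21.6% higher, are the level to read its counts against. In pieces of ventricle, fewer cells of a type and less RNA per cell cannot be told apart.

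The natriuretic peptide genes Nppa and Nppb, the myosin gene Myh7 and the actin gene Acta1 were lower in KO TAC. Nppa, the atrial natriuretic peptide, read 37560.0 and 40864 on the WT TAC arrays and 8244 and 4465 on the KO TAC arrays. Both peptide genes lay close to the highest intensity of any probe, 43297, on the WT TAC arrays, so that their folds may be too small. Nppa was 6.56-fold lower (-2.71 ± 0.28, limma adjusted p 0.000759). Nppb, the B-type peptide, read 37191 and 39781 against 13879 and 6537 and was 4.08-fold lower (adjusted p 0.00403). In both genes KO TAC replicate 2 was the lowest of the 6 arrays, and KO TAC replicate 1 lay near the sham arrays (9185 and 8317 for Nppa and 13525 and 12312 for Nppb in WT Sham and KO Sham). Myh7, the slow beta myosin heavy chain, read 3051 and 2911 against 291 and 233, an 18.4-fold difference (-4.20 ± 0.20, adjusted p 5.84e-05). Acta1, skeletal alpha actin, read 33790.2 and 32227 against 7868 and 3586 (-2.66 ± 0.34, adjusted p 0.00167). It also differed between the sham arrays, at 19904 in WT Sham and 8540 in KO Sham. The 2 KO TAC arrays of Acta1 differed from each other by more than any pair of WT TAC values here.

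Of 19 measured natriuretic and stress-secreted peptide genes, 11 were lower and 4 higher (median log2 -1.07, against 0.04 over all genes). With only genes above background on all 4 arrays kept, 6 were lower. Stc1, the calcium-regulating hormone stanniocalcin, read 3261 and 3457 in WT TAC and 234 and 264 in KO TAC, 22.6-fold lower. Fstl3, an activin inhibitor, was at least 2.61-fold lower. Fgf16, a growth factor made by heart muscle, stood the other way at 210.4 and 200.3 against 410.3 and 404, 2.99-fold higher, and the vasoconstrictor Edn1 was 2.13-fold higher.

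Sarcomere and Z-disc genes split. Of 40 measured, 16 were lower and 8 higher (median -0.29). Beside Myh7 and Acta1, the lower genes included Synpo2l, a Z-disc protein (1926 and 1473 against 324 and 289.9, 7.8-fold), the stretch sensor Fhl1 (19498 and 19766 against 5222 and 4493, 4.12-fold), the intermediate filament desmin, Des (2.25-fold), and the atrial light chain Myl4 (2.65-fold). The higher genes were led by Ky, a Z-disc protein whose loss causes muscle wasting in mice (254 and 196 against 1115 and 1049.5, 8.3-fold), and Tnnt1, slow skeletal troponin T (391 and 380.3 against 1488 and 1684, 5.24-fold, adjusted p 0.000116). Smyd1, a muscle methyltransferase, was 2.4-fold higher and Lmod3, an actin nucleator, 2.03-fold. Myh6, the fast alpha myosin of the adult mouse ventricle, read 19904 and 16428 against 30351 and 31012 and was 1.7-fold higher (adjusted p 0.00831), but not without WT TAC replicate 2 (adjusted p 0.0596). Without either WT TAC array, 5 members were higher.

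Potassium channel genes lay higher in KO TAC almost as a class. Of 21 measured subunits, 16 were higher and 1 lower (median 0.97, or 0.71 with bounds in place of the folds of genes at background). Kcnip2, an auxiliary subunit of the Kv4 channels that carry the fast transient outward current, read 189.6 and 164 on the WT TAC arrays and 437 and 431 on the KO TAC arrays. It was 4.59-fold higher (2.20 ± 0.19, limma adjusted p 0.000414), and its 3 probes all ran upward. Kcnd2, the Kv4.2 pore subunit of that current, read 337 and 248 against 775 and 722 (3.51-fold). In each gene WT TAC replicate 2 was the lower of the WT TAC pair. Kcnv2, a silent subunit that modifies Kv2 channels, was below background in WT TAC and at least 2.26-fold higher. Abcc9 and Kcnj8, which together form the vascular ATP-sensitive channel, were 2.83-fold and 2.06-fold higher, and Kcnj3, an atrial acetylcholine-gated subunit, at least 1.24-fold. Kcnj14 alone passed in the other direction, at least 1.21-fold lower. Without WT TAC replicate 2, 9 subunits were higher.

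Calcium handling and sodium or calcium channel genes differed less. Of 20 measured, 6 were higher and 1 lower (median 0.12), and 3 were higher without WT TAC replicate 2, without KO TAC replicate 2 or with no filter on dim probes. Hrc, a calcium-binding protein of the sarcoplasmic reticulum, read 7623 and 6403 against 17466 and 17715 (2.54-fold higher). Scn4b, a sodium channel beta subunit, was 2.69-fold higher by its brighter probe, and Asph, whose gene also encodes the reticulum protein junctin, 3.0-fold, although its 9 probes ranged from -0.53 to 1.58. Ryr2, the release channel, did not pass (0.54 ± 0.20, adjusted p 0.0659). Fxyd5, a modulator of the sodium pump, was 3.97-fold lower. Of 16 tubulin and microtubule genes 6 were lower, among them Tubb6 (2.55-fold), Tuba1a (2.33-fold) and the neuronal microtubule protein Map1b (3.7-fold), and 3 were higher, led by Tuba4a (2.14-fold). Tubulin genes are close copies of one another, and their probes may read more than 1 of them.

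Matrix genes made up the widest one-sided block. Of 37 measured collagen and collagen-processing genes, 31 were lower in KO TAC and 0 higher (median -1.25, or -1.18 with bounds). With any 1 array left out, 28 to 30 were lower. Fibroblast markers, summed over 12 genes, read 11748 and 13791 on the WT TAC arrays and 8164 and 8514 on the KO TAC arrays. That difference lay largely in Pi16 (3797 and 4142 against 1232 and 1385) and Meox1 (1976 and 2768 against 561 and 419). Of the 12 markers 5 were lower and 1 higher, with a median of -0.06. Lox, the enzyme that crosslinks collagen and elastin, read 2994 and 2929 on the WT TAC arrays and 167 and 187 on the KO TAC arrays, next to 166 and 165 in WT Sham and KO Sham. It was 39.5-fold lower (-5.30 ± 0.17, adjusted p 1.53e-05). The network collagen Col8a1 read 5521 and 5339.5 against 456 and 415 (16.1-fold), and its partner chain Col8a2 was at least 3.46-fold lower. Col1a2, a chain of the main fibrillar collagen of scar, read 708 and 830.2 against 177 and 139 (13-fold, adjusted p 0.000426). On both WT TAC arrays these 4 genes were well above every other array. The 6 members that did not pass, singled out after their values were seen, were Col11a1, Col5a3, Crtap, P4ha1, Plod1 and Serpinh1, and their log2 differences ran from -0.27 to 0.15.

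Glycoproteins, proteoglycans and elastic fibre genes followed, with 35 of 45 lower and 1 higher (median -1.85, or -1.18 with bounds). Comp, a thrombospondin-family matrix protein, read 9992 and 12127 in WT TAC and 173 and 230.0 in KO TAC, 117-fold lower (-6.87 ± 0.28, adjusted p 3.29e-05) and the widest difference of any gene. The sham arrays read 156 and 159, next to the KO TAC values. Ccn5, a growth-restraining member of the CCN family, read 3024 and 4010.4 against 167 and 157 (58.3-fold), and 283 and 160.5 in WT Sham and KO Sham. Lgals3, galectin-3, read 9139 and 15279 against 439 and 437, with the KO TAC arrays nearly equal and WT TAC replicate 2 well above WT TAC replicate 1 (35-fold lower). Thbs1, which can activate latent TGF-beta, was at least 2.65-fold lower. The member that ran the other way was Emilin2, an elastic fibre glycoprotein, at 438 and 402 against 698 and 922 (2.21-fold higher).

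Proteases and their inhibitors were lower in 23 of 32 and higher in 6 (median -1.27, or -1.21 with bounds). Timp1, the secreted inhibitor of matrix metalloproteinases, read 6753 and 6356 on the WT TAC arrays, 273 and 317 on the KO TAC arrays and 313 and 309 in WT Sham and KO Sham. Its KO TAC level was 33.9-fold below that of WT TAC (-5.08 ± 0.16, adjusted p 1.53e-05), and both its probes gave nearly the same difference. Timp4, the heart-enriched member of the same family, stood the other way at 509 and 562 against 856 and 838 (1.72-fold higher, adjusted p 0.00555). Serpina3n, a serine protease inhibitor of the acute phase, was among the brightest of the lower genes at 14054 and 16139 against 802 and 819 (21.2-fold). The aggrecan-cleaving Adamts4 was at least 4.44-fold lower and the urokinase receptor Plaur 10.9-fold. The secreted protease Htra3 was 2.76-fold higher by its brighter probe. Without either WT TAC array or without KO TAC replicate 1, 3 members of this list were higher.

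Of 43 integrin, adhesion and mechanosensing genes, 28 were lower and 1 higher (median -0.83). The collagen receptor chain Itga11 read 516 and 714 against 205 and 249 (4.13-fold lower), and the actin crosslinker Actn1 2881 and 2855 against 751 and 908 (3.83-fold). Ncam1, a neural adhesion molecule, was 6.89-fold lower and the leukocyte ligand Icam1 4.01-fold. Itgb6, the epithelial integrin chain that binds latent TGF-beta, went the other way at 208 and 174 against 1240.0 and 1147 (12.7-fold higher, 3.67 ± 0.21, adjusted p 9.77e-05), and its 3 probes all ran upward.

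Growth factor pathways gave mixed lists. Of 27 TGF-beta and BMP genes, 14 were lower (8 without WT TAC replicate 2) and 4 higher (median -0.49). The ligands Tgfb2 (771 and 767 against 201 and 215, 6.38-fold), Bmp4 (5.94-fold) and Tgfb3 (3.44-fold) were lower, as was Skil, a corepressor of Smad proteins that TGF-beta signalling induces (2.94-fold). The 4 higher members were Id1, Smad2, Smad5 and Acvr2a, each by less than 2-fold, and Smad5 ran the other way when its probes were averaged (log2 -0.22). Without WT TAC replicate 2 the higher count was 0, without WT TAC replicate 1 it was 2 and without KO TAC replicate 1 it was 1. Of 28 Wnt, IGF and growth factor genes 12 were lower, among them the secreted modulators Dkk3 (1922 and 2138 against 213 and 329, 12.2-fold) and Sfrp2 (at least 2.67-fold) and Igfbp3, which binds insulin-like growth factors (5.58-fold). Wnt5a, a ligand of non-canonical Wnt signalling, stood at 174 and 170.4 against 427 and 395, 4.49-fold higher (adjusted p 0.000143), with 3 further members higher.

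Endothelial growth and apelin genes moved both ways, 15 of 35 lower and 10 higher (median -0.18), and 6 were higher without either WT TAC array. Sphk1, which makes sphingosine-1-phosphate, read 2660.2 and 2505 against 177 and 191 (30.9-fold lower). Selp and Sele, the selectins that catch leukocytes on activated endothelium, were at least 5.7-fold and 2.04-fold lower. The claudin of endothelial tight junctions, Cldn5, read 6217 and 5724 against 1172 and 975 (6.08-fold lower). Among the higher genes, the transcription factor Sox18 read 309.7 and 431 against 1268 and 1143 (4.24-fold), the apelin receptor Aplnr 132 and 158 against 424 and 478 (8.7-fold, above background on a single WT TAC array), and the vessel-stabilizing ligand Angpt1 was at least 1.8-fold higher.

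**Figure D2:**
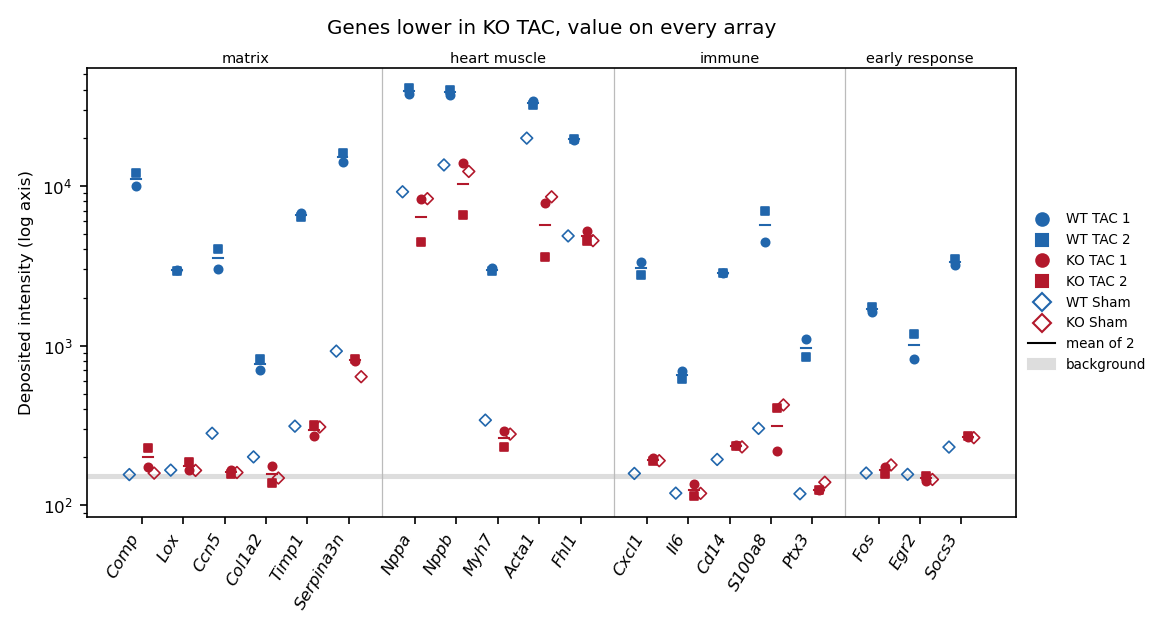
Deposited intensity (log axis) on each of the 6 arrays for 19 genes that passed lower in KO TAC, grouped by role; filled symbols are the TAC arrays, open diamonds the sham arrays, short lines the means of 2 TAC arrays, and the grey band the background level. As the calling rule requires, blue WT TAC symbols lie above the red KO TAC ones in every gene, from 692 and 616 against 135 and 114 in KO TAC for Il6 to 37560.0 and 40864 against 8244 and 4465 for Nppa.

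Immediate early genes, the transcription factors and feedback regulators that cells switch on within minutes of a stimulus, were lower in 29 of 35 and higher in 1 (median -1.78, or -1.73 with bounds). Fos, a subunit of the AP-1 factor, read 1630.0 and 1750.0 on the WT TAC arrays and 174 and 158 on the KO TAC arrays (25.7-fold, -4.68 ± 0.17, adjusted p 2.01e-05). Egr2, a zinc-finger factor, read 830.4 and 1182 against 143 and 153 (20.2-fold). Socs3, the feedback inhibitor of cytokine receptors, read 3213 and 3499 against 267 and 272 (19.6-fold). In all 3 genes the KO TAC values lay within the range of, or close to, the sham values, and the WT TAC values were the 2 highest. The member that was higher was Gadd45a (1.66-fold), which did not pass without either WT TAC array. With only genes above background on all 4 arrays kept, 18 were lower.

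Inflammatory genes were lower too. Of 27 innate, acute phase and alarmin genes 22 were lower and 1 higher (median -1.88, and -1.67 with bounds), or 13 lower with only genes above background on all 4 arrays kept. The 6 neutrophil markers measured, some of which are in this list too, were all lower beside them, with summed intensities of 7377 and 12095 on the WT TAC arrays and 897 and 1187 on the KO TAC arrays. The alarmin S100a8 read 4431 and 6985 against 218 and 407 and its partner S100a9 1799.7 and 3349 against 166 and 238 (29.3-fold and 25.8-fold lower). WT TAC replicate 2 was the higher of the WT TAC pair in both, and KO TAC replicate 2 the higher of the KO TAC pair. Ptx3, a soluble pattern recognition protein, was at least 6.29-fold lower, Ch25h, which makes an oxidised cholesterol, 25.9-fold, and the endotoxin coreceptor Cd14, at 2835 and 2862 against 239 and 234, 20.7-fold (adjusted p 1.53e-05). Retnla, a product of alternatively activated macrophages in mice, went the other way, at least 1.63-fold higher.

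Of 44 chemokine, interleukin and receptor genes, 20 were lower (8 with genes above background on all 4 arrays) and 10 higher (6 without WT TAC replicate 1), with a median of -0.54, or -0.26 with bounds. Cxcl1, a chemokine for neutrophils, read 3346 and 2783 against 198 and 189 (32.8-fold lower, -5.04 ± 0.16, adjusted p 1.53e-05). Its relative Cxcl2 was at least 2.57-fold lower, the cytokine Il6 at least 4.26-fold and the decoy receptor Il1r2 at least 2.17-fold. Il15, a cytokine abundant in muscle, read 868 and 701 against 2716 and 2372 and was 3.6-fold higher. In the TNF family 10 of 18 were lower and 5 higher (2 with genes above background on all 4 arrays). Nfkbiz and Nfkbia, feedback regulators that NF-kB induces, were 12.4-fold and 3.41-fold lower, osteoprotegerin, Tnfrsf11b, at least 1.7-fold and the TWEAK receptor Tnfrsf12a 4.21-fold, while the death ligand Tnfsf10 was at least 1.31-fold higher. Of 17 complement and coagulation genes 8 were lower, led by C4a (797 and 860.4 against 169.5 and 231, 7.91-fold) and C4b (5.44-fold), near-identical copies that probes may not tell apart, and 2 were higher. Cfp, properdin, which stabilises the alternative pathway, was among those (1.68-fold).

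Because AP-1 and NF-kB are the factors best known for driving genes of these kinds, the bases upstream of the genes' starts were searched for their binding letters. RefSeq promoters (GRCm38.p6) were available for 7801 of the 9625 genes, and the 250 bases before each start were read on both strands. The AP-1 letters TGANTCA occurred in 54 of 634 promoters of genes more than 2-fold lower (8.52%), in 20 of 490 of genes more than 2-fold higher (4.08%) and in 332 of all 7801 (4.26%). The NF-kB letters GGGANTTTC occurred in 11 of 634 (1.74%), 6 of 490 (1.22%) and 63 of 7801 (0.808%). For the E-box CACGTG, bound by clock and Myc factors, the shares were 7.73%, 6.53% and 8.76%, and for the TEAD letters GGAATGT 3.15%, 3.06% and 2.46%. They were 2.05%, 2.65% and 2.79% for the cyclic AMP response element TGACGTCA, 0.158%, 0.408% and 0.256% for the extended half-site TCAAGGTCA of estrogen-related receptors, and 1.89%, 0.816% and 1.26% for the CArG box of serum response factor. None of the spelled motifs contains another. These shares are descriptions and were not tested, and a match is not a binding site. The 8 windows below belong to lower genes and are shown 5′ to 3′ on the gene's strand, with matches to the AP-1 or NF-kB letters in capitals. Timp1 is shown as the secreted gene that the study followed furthest, and its window holds neither motif. The other windows were picked by hand among genes that hold a match, so they do not stand for the lower genes, most of which hold neither motif. Plaur, Selp and AA467197 hold an AP-1 match, Cxcl1, Cxcl2 and Nfkbia an NF-kB match, and Il6 both.
Timp1: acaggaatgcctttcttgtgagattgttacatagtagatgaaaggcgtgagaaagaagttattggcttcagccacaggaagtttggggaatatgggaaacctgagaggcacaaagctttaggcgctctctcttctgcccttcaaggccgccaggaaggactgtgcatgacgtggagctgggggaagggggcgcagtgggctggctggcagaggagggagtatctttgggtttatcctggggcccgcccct
Plaur: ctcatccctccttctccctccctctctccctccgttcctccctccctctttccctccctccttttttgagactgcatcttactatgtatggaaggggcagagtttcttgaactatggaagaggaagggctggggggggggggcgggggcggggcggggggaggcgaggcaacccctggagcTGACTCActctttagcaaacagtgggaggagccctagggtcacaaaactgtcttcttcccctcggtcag
Selp: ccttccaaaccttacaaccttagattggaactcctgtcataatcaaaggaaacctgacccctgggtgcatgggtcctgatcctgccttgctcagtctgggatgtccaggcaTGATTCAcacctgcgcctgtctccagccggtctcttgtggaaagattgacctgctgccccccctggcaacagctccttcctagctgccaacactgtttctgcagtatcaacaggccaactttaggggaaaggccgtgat
AA467197: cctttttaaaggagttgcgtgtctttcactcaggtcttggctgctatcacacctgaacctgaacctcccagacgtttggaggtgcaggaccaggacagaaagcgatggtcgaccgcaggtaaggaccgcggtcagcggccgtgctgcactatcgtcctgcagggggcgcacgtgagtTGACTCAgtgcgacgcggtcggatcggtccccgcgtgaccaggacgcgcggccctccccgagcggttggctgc
Il6: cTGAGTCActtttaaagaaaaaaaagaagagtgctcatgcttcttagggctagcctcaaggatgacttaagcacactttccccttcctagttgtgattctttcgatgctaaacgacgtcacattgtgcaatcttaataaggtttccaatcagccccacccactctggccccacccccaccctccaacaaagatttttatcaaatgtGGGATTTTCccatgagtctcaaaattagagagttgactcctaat
Cxcl1: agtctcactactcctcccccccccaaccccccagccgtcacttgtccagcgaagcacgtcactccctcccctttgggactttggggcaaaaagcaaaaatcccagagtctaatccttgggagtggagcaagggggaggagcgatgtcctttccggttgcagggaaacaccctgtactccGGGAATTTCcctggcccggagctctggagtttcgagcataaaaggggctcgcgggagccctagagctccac
Cxcl2: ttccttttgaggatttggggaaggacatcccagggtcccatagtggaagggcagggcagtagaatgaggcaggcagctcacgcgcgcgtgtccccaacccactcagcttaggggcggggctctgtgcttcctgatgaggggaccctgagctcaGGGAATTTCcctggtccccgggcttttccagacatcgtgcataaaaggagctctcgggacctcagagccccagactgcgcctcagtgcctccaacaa
Nfkbia: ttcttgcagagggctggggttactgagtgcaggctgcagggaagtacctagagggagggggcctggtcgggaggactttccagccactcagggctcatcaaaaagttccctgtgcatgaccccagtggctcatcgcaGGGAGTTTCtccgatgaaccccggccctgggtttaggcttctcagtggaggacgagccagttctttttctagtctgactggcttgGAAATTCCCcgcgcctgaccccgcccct

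The positions of these windows are chrX:20869916-20870165 (plus strand) for Timp1, chr7:24462233-24462482 (plus strand) for Plaur, chr1:164115014-164115263 (plus strand) for Selp, chr2:122637637-122637886 (plus strand) for AA467197, chr5:30012864-30013113 (plus strand) for Il6, chr5:90890995-90891244 (plus strand) for Cxcl1, chr5:90903649-90903898 (plus strand) for Cxcl2 and chr12:55492648-55492897 (minus strand) for Nfkbia. Values of these genes stand with their groups, except AA467197, which read 2727 and 2532 on the WT TAC arrays, 144 and 150.1 on the KO TAC arrays and 141 and 147 on the sham arrays. It was at least 17.1-fold lower in KO TAC and had the largest moderated t statistic of the lower genes.

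Most fatty acid genes ran in the other direction. Of 49 measured genes of fatty acid uptake and oxidation, 32 were higher in KO TAC and 1 lower (median 0.73, or 0.67 with bounds), and 21 were higher without WT TAC replicate 2. Cardiomyocyte markers, summed over 9 genes, read 148588 and 145279 on the WT TAC arrays and 180086 and 178084 on the KO TAC arrays. Much of that difference lay in Myh6 (19904 and 16428 against 30351 and 31012) and Ckm (6160 and 4497 against 14711 and 13588). The bright markers Myl2, Actc1 and Mb differed by 0.055, 0.068 and 0.002 on the log2 scale. Acot1, a cytosolic thioesterase that frees fatty acids from coenzyme A, read 233 and 247 on the WT TAC arrays, 1926 and 2099 on the KO TAC arrays and 2077 and 1507 in WT Sham and KO Sham. It was 14-fold higher (3.81 ± 0.14, adjusted p 2.27e-05). Acaa2, the thiolase of the last step of mitochondrial beta-oxidation, read 2276 and 1765 against 10360.0 and 11433 (5.67-fold), and Eci1, an isomerase for unsaturated acyl chains, 4122 and 3151 against 12372 and 10104 (3.17-fold). WT TAC replicate 2 was the lowest of the 6 arrays for Acaa2 and Eci1. Acsl6, an acyl-CoA synthetase, was 3.41-fold higher by its brighter probe, and Acsl5, another, was the lower member (1.5-fold), a call that was lost without WT TAC replicate 2 or KO TAC replicate 1. The trifunctional protein (Hadha 1.36, Hadhb 0.76 on the log2 scale), the carnitine shuttle (Cpt2 1.28, Crat 1.27, Slc25a20 1.16) and the electron transfer flavoproteins (Etfdh 1.32, Etfb 1.07, Etfa 0.67) passed as well, whereas the fatty acid receptor Cd36 (0.07), the heart fatty acid binding protein Fabp3 (0.14) and Cpt1b (0.47) did not; these were chosen after their values were seen.

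Triglyceride and lipid droplet genes were higher in 15 of 37 and lower in 6 (median 0.25). Ces1d, a carboxylesterase that hydrolyses triglycerides, read 229 and 203 in WT TAC, 5335 and 5199.9 in KO TAC and 4422 and 4599.5 in the sham arrays, and was 46.4-fold higher (5.53 ± 0.16, adjusted p 1.53e-05). Only the WT TAC arrays were low. G0s2, an inhibitor of the triglyceride lipase Atgl, read 244 and 279 against 1593 and 1225 (8.24-fold higher), and Fitm1, which shapes lipid droplets in muscle, 241 and 189 against 642 and 574 (4.64-fold). The desaturase Scd1 (2.31-fold) and the hypoxia-inducible droplet protein Hilpda (2.29-fold) were lower.

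Oxidative phosphorylation subunits were higher in 34 of 71 and lower in 0, but by small steps: the median was 0.42 on the log2 scale, and 1 subunit passed 2-fold. That was Ndufb4, a complex I subunit (451 and 380.2 against 836 and 806, 2.31-fold). Ndufs4, a complex I subunit needed for its assembly, read 9350.0 and 7903 against 16488 and 16354 (1.92-fold, adjusted p 0.00349). The count rested on the arrays kept: 8 subunits were higher without WT TAC replicate 2, 17 without WT TAC replicate 1 and 20 without KO TAC replicate 2. In the citric acid cycle and at pyruvate entry 16 of 30 were higher and 1 lower (median 0.55), and 6 were higher without WT TAC replicate 2. Pdp2, the phosphatase that activates pyruvate dehydrogenase, read 764 and 494 against 2549.7 and 2842 (5.1-fold higher, adjusted p 0.000822). Dlat, a core subunit of that complex, read 1066 and 914 against 1743 and 2077 (2.04-fold), and Suclg2, a succinyl-CoA ligase subunit, was 2.08-fold higher. Pdk3, one of the kinases that switch pyruvate dehydrogenase off, was 2.72-fold lower (208 and 232 against 139.9 and 154).

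Genes of glucose use did not stand apart as a list. Of 36 measured, 11 were higher and 8 lower (median -0.08), shares near those over all genes, and without WT TAC replicate 2 the counts were 6 and 4. Without WT TAC replicate 1 or KO TAC replicate 1, 5 were lower. The transporters Slc2a1 (1592 and 1765 against 446 and 429, 4.71-fold) and Slc2a3 (4.83-fold), the phosphofructokinase Pfkp (3.49-fold) and the hexosamine enzyme Gfpt2 (4.18-fold) were lower. The muscle enolase Eno3 (10254 and 7953 against 21462 and 22197, 2.43-fold), the glycogen-targeting phosphatase subunit Ppp1r3b (4.0-fold) and the catalytic subunit of muscle phosphorylase kinase, Phkg1 (at least 2.77-fold), were higher. Fbp2, the muscle fructose bisphosphatase, read 306 and 234 against 1366 and 1309 and was 7.61-fold higher (2.93 ± 0.22, adjusted p 0.00024).

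Branched-chain amino acid, ketone and creatine genes were higher in 18 of 28 and lower in 5 (median 0.59), and leaving out WT TAC replicate 2 gave 9 and 3. Without KO TAC replicate 1, 3 were lower, and with only genes above background on all 4 arrays kept, 1. Ppm1k, the phosphatase that activates the branched-chain keto acid dehydrogenase, read 1067 and 828 against 2518 and 3004 (3.17-fold). The dehydrogenase subunits Dbt (744 and 564 against 1535 and 1786, 2.86-fold) and Bckdhb (563 and 597 against 1430.2 and 1355, 2.71-fold) were higher with it. In all 3 genes both KO TAC values exceeded both WT TAC values by more than the replicates differed. The muscle creatine kinase Ckm read 6159.9 and 4497 against 14711 and 13588 (2.72-fold higher), whereas the mitochondrial isoform Ckmt1 was at least 3.45-fold lower and the brain isoform Ckb 1.55-fold lower, the last not without WT TAC replicate 2 or KO TAC replicate 1.

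Serine, one-carbon and amino acid synthesis genes, many of them targets of the stress factor Atf4, were lower in 11 of 25 (7 without WT TAC replicate 2) and higher in 4 (median -0.65, or -0.41 with bounds). Nupr1, a stress-induced nuclear protein, read 2629.8 and 3489 against 459 and 509.6 (7.7-fold lower), the glutathione-degrading Chac1 was 3.66-fold lower and Mthfd2, a mitochondrial folate enzyme, 3.02-fold. Gpt, alanine transaminase, was 3.06-fold higher. NAD, glutathione, iron and antioxidant genes were higher in 16 of 50 and lower in 13 (median 0.16), against 3 and 7 without WT TAC replicate 2, 8 higher without WT TAC replicate 1 and 10 higher without either KO TAC array. Nmrk2, the muscle kinase that makes NAD from nicotinamide riboside, read 9224 and 11872 against 206 and 185 (114-fold lower by its brightest probe, while its 3 probes ranged from -6.83 to 1.46). Nox4, a hydrogen peroxide-producing oxidase, was at least 3.42-fold lower and heme oxygenase, Hmox1, 5.03-fold. Slc40a1, ferroportin, the iron exporter, read 304 and 255 against 1323 and 1157 (6.49-fold higher, adjusted p 0.000167).

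Mitochondrial carriers and mitochondrial ribosomal proteins were higher in 27 of 53 (14 without WT TAC replicate 2) and lower in 3 (median 0.48), or 1 without WT TAC replicate 2 or KO TAC replicate 1. Slc25a42, which brings coenzyme A into mitochondria, read 242 and 188 against 683 and 585 (4.88-fold higher), and Slc25a26, the methyl donor carrier, was 2.29-fold higher. Slc25a25, an ATP and phosphate carrier, was 4.9-fold lower. Of 38 metabolic transcription regulators and clock genes, 11 were higher (5 without WT TAC replicate 2) and 6 lower (median 0.08). Rxrg, a retinoid receptor that pairs with PPARs, was 3.04-fold higher and the coactivator Ppargc1b 2.27-fold. The clock genes among them form no list of their own, and those named here were picked by their values. Arntl (Bmal1), an activator of the clock, read 199 and 211 against 525 and 472 (3.91-fold higher, adjusted p 0.000246). Its repressors Per2 (599 and 646 against 226 and 181, 5.34-fold) and Per1 (2.88-fold) and the output factor Dbp (4056 and 3814 against 1648 and 979, 3.29-fold) were lower. The labels do not give the hour at which hearts were taken.

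**Figure D3:**
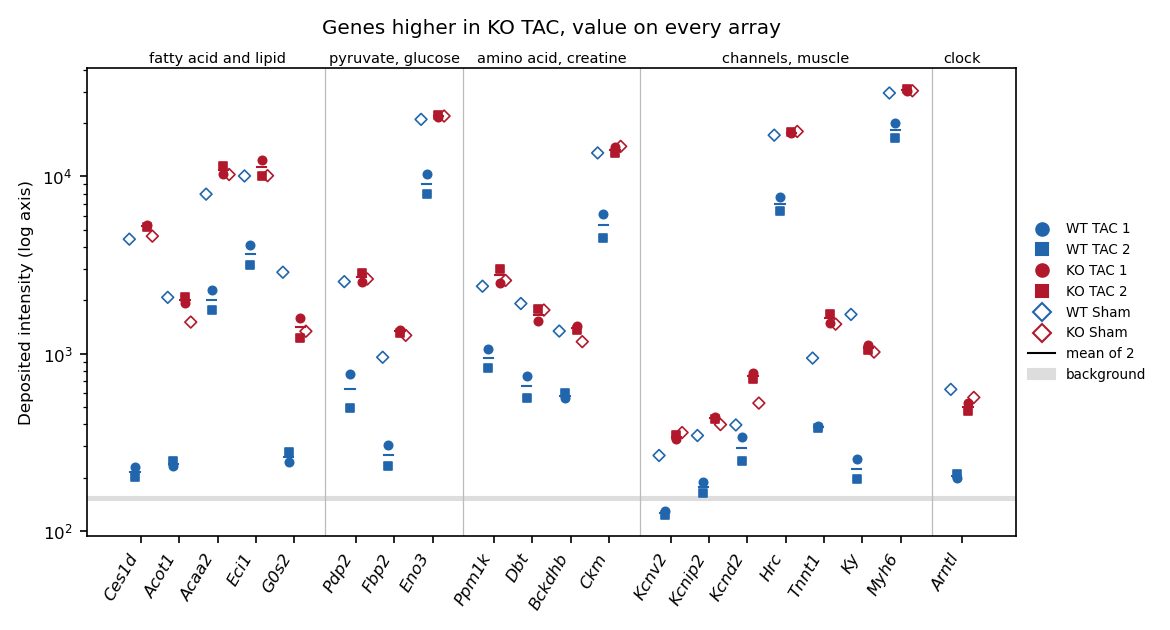
Deposited intensity (log axis) on each of the 6 arrays for 20 genes that passed higher in KO TAC, grouped by role, with the same symbols as for the lower genes; the grey band is the background level. As the calling rule requires, red KO TAC symbols lie above both blue WT TAC symbols in every gene, from 130.0 and 123 against 329.9 and 347 in KO TAC for Kcnv2 to 19904 and 16428 against 30351 and 31012 for Myh6.

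General protein synthesis and turnover genes differed little. Of 47 cytosolic ribosomal protein genes 4 were lower and 0 higher (median -0.16), and 2 were lower without either WT TAC array or without KO TAC replicate 1, against 9 with the deposited intensities taken without further correction. Rpl3 read 16139 and 17570.4 against 7822 and 7571 (2.2-fold lower, adjusted p 0.00126) and Rplp0 546 and 591 against 290.4 and 266 (2.67-fold). Of 41 proteasome and muscle ubiquitin ligase genes 6 were higher and 5 lower (median 0.01). Without either WT TAC array 3 of them were higher, and 1 or 2 were lower without WT TAC replicate 1, WT TAC replicate 2 or KO TAC replicate 1, against 11 without further correction. Kbtbd13, a ligase adaptor of skeletal muscle, was at least 2.76-fold higher and the atrophy-linked ligase Fbxo30 3.13-fold. Chaperone and endoplasmic reticulum stress genes were lower in 10 of 38 and higher in 7 (median 0.06), against 4 and 2 without WT TAC replicate 2 and 5 and 3 without WT TAC replicate 1. Without KO TAC replicate 1, 4 were higher, and without KO TAC replicate 2, 6 were lower. The mitochondrial chaperone Hspe1 was 2.06-fold higher and the small heat shock protein Hspb1 2.36-fold lower. DNA replication and mitosis genes were lower in 6 of 28 and higher in 4 (median -0.22), against 3 and 1 without WT TAC replicate 2, 3 and 2 without WT TAC replicate 1 and 3 lower without KO TAC replicate 2. The cell cycle inhibitor Cdkn1a read 5528 and 5046 against 1236 and 1639 (3.93-fold lower).

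**Figure D4:**
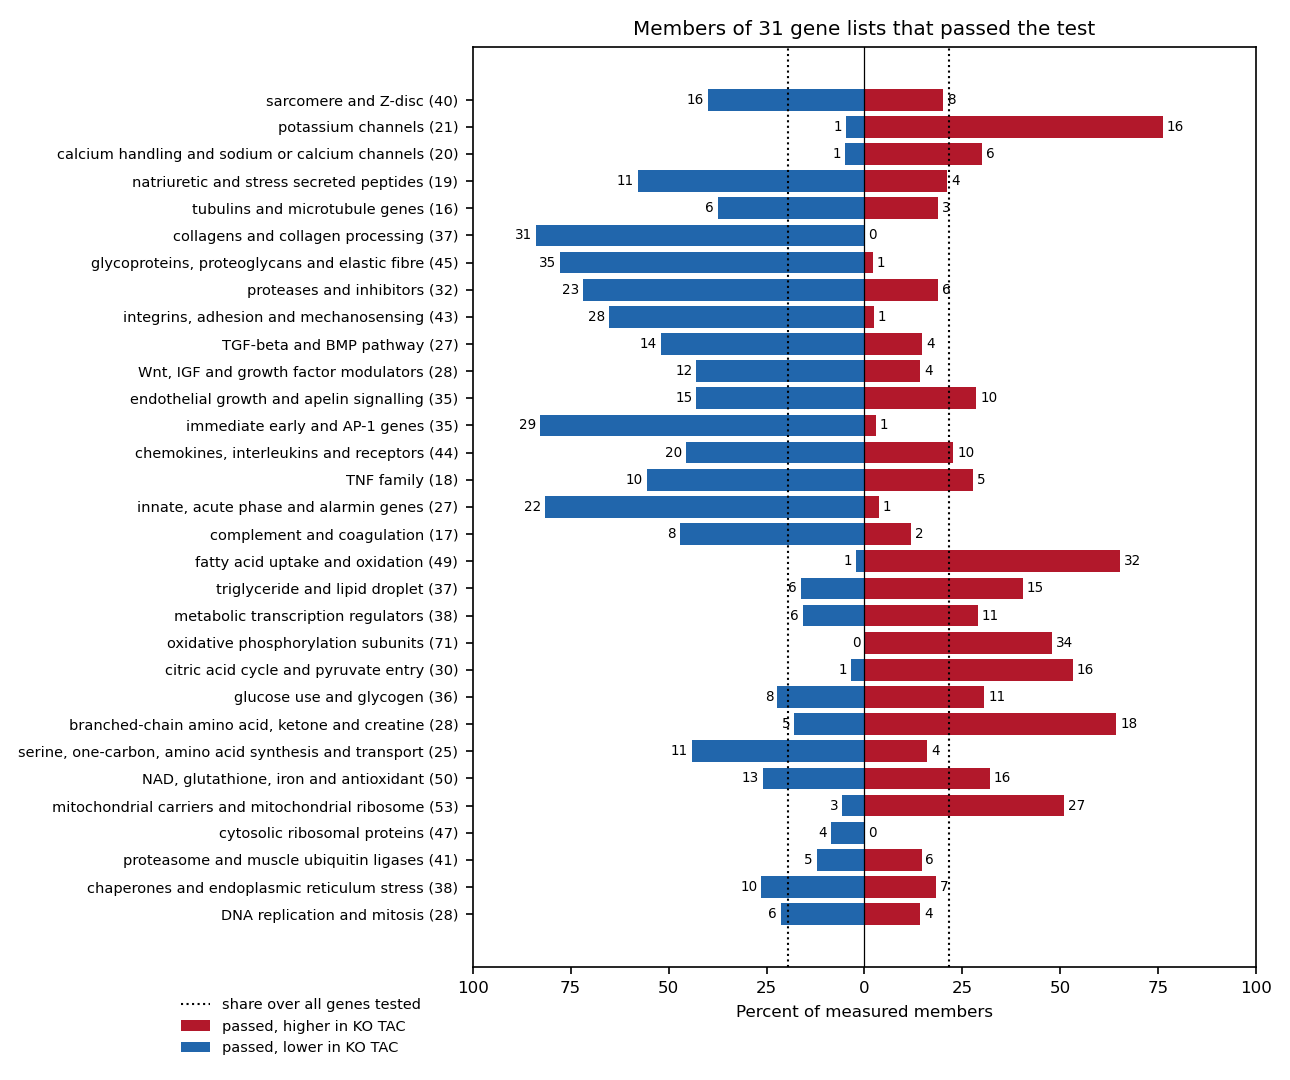
Percent of the measured members of each of 31 gene lists that passed the test, lower in KO TAC to the left and higher to the right, with the number of measured members in brackets, counts at the bar ends and dotted lines at the shares over all genes tested (19.6% lower, 21.6% higher). Collagen (31 of 37 lower) and immediate early genes (29 of 35) reach furthest left, potassium channels (16 of 21 higher) and fatty acid genes (32 of 49) furthest right.

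Markers of several cell types moved beside these groups. The 6 neutrophil markers lower in KO TAC had a median of -3.07 (-1.35 with bounds), 2 were lower with only genes above background on all 4 arrays kept, and the granule genes Mpo, Elane and Camp were below background on every array. Atrial markers, a list that includes Nppa and Dkk3, were lower in 4 of 6 and higher in 2. The 2 higher ones were Stard10 and Kcnj3. The atrial sum read 40992 and 44619 on the WT TAC arrays against 9965 and 6261 on the KO TAC arrays. Most of it was Nppa on each of these arrays (37560.0 and 40864 against 8244 and 4465), so the sum mainly repeats that gene. Fibroblast markers were lower in 5 of 12 and higher in 1 (median -0.06), and 3 were lower without either WT TAC array. The lower fibroblast genes were led by the transcription factor Meox1 (1976 and 2768 against 561 and 419, 5.89-fold) and Pi16 (3.21-fold), and the higher one was the ferritin receptor Scara5 (186 and 159 against 882 and 792, 10.9-fold). Macrophage markers were lower in 3 of 14 and higher in 2 (median -0.10, summed intensity 12502 and 12994 against 8213 and 9865). Endothelial markers were lower in 4 of 13 and higher in 3 (2 and 1 without either WT TAC array, 1 higher without KO TAC replicate 2), with sums of 28301 and 30729 against 23154 and 23245. Smooth muscle and pericyte markers were lower in 2 and higher in 2 of 10, with sums of 38902 and 43501 against 29556 and 24405. Des, also a sarcomere and Z-disc gene, was the largest part of each sum (27201 and 29133 against 13525 and 11716). Acta2, the next largest, read 8055 and 10667 against 10609 and 7868. Much of the difference in the macrophage and endothelial sums lay likewise in single genes, Cd14 and Cldn5, whose values stand above. Of 9 cardiomyocyte markers 4 were higher and 0 lower (2 higher without WT TAC replicate 2), namely Ckm, Myh6, the inhibitory troponin Tnni3 and the calcium pump inhibitor Pln. The part of these markers in the matrix, inflammatory and metabolic differences was not tested.

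The other lists held few measured markers. Of 6 erythroid markers 2 were lower, Slc4a1 and Alas2, with the globin genes Hba-a1 (-0.04 on the log2 scale), Hbb-bt (-0.11), Hbb-bs (-0.14) and Hbb-b2 (1.30) not passing. The first 3 of these values come from probes close to the highest intensity on the arrays, and a dimmer probe of Hbb-bs and of Hbb-bt differed more (-1.52 for Hbb-bs probe ILMN_2544056 and -1.19 for Hbb-bt probe ILMN_1235372), so that they do not show equal globin levels. Both mesothelial genes measured, Krt8 and Krt18, were lower while the defining marker Msln was below background, 1 of 4 Schwann cell markers was lower (Pmp22, 2.4-fold) with Sox10 below background, the 1 lymphocyte marker measured, Cd79b, did not pass, and no adipocyte marker rose above background. Heart muscle itself was plain on all 4 TAC arrays, where Myl2, the ventricular light chain, read 39781 and 38976 and 41371 and 40446.

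**Figure D5:**
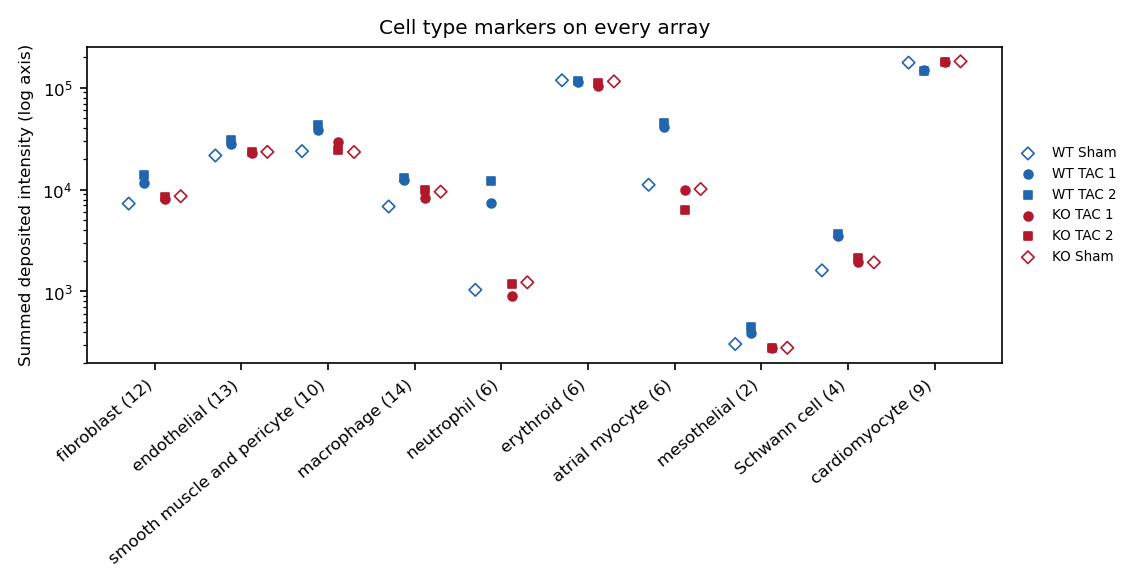
Summed deposited intensity (log axis) of the measured markers of 10 cell types on each array, with the number of markers in brackets. The neutrophil sums separate most, 7377 and 12095 in WT TAC against 897 and 1187 in KO TAC, and the erythroid sums of the 4 TAC arrays lie between 103258 and 115806. The brightest genes weigh most in a sum, such as Nppa in the atrial and Des in the smooth muscle sums.

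Among the enzymes that write or erase methylation of lysine 9 on histone H3, 9 were measured and differed little. Beside Kdm3a, the demethylase Phf2 was 1.57-fold higher (351 and 332 against 477 and 477, adjusted p 0.00967), but not without WT TAC replicate 2 (adjusted p 0.067). The brightest Kdm3a probe itself did not pass with any 1 array left out. Ehmt2, Kdm1a, Kdm4a, Kdm4b, Kdm4c, Kdm7a and Setdb1 did not pass, with log2 differences between -0.37 and 0.40.

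Of the called genes, 32 of the 2077 higher and 27 of the 1884 lower also differed more than 2-fold in the same direction between KO Sham and WT Sham, on 1 array a genotype. The share over all genes was not counted, so these counts cannot be called few or many. After TAC the median folds of the called genes were 1.71 and 1.88, so a 2-fold bar leaves out smaller sham differences. The brightest Kdm3a probe, at 501.6 in WT Sham and 389.9 in KO Sham, stayed under it. Of genes named above, the lower ones included Acta1 (log2 -1.23 in KO Sham minus WT Sham), Ccn5 (-1.65), Col1a2 (-1.13), C4a (-1.09) and Hspb1 (-1.33). The higher ones included Phkg1 (1.34) and Hadha (1.06). Tnfrsf22, a decoy receptor for the death ligand TRAIL in mice, read 173 and 152 on the WT TAC arrays and 4651 and 4053 on the KO TAC arrays, and 202 and 5042 in WT Sham and KO Sham. It was 72.9-fold higher by its brightest probe, while its 3 probes ranged from -0.18 to 6.19. Of 6 measured genes listed as differing between mouse strains, 2 were higher (33.3%) and 1 lower (16.7%). The higher ones were Wdfy1 and Nnt and the lower one Entpd4 (-0.41 by its brightest probe), while Ide, Erdr1 and Cyp2d22 did not pass. Wdfy1 read 206 and 218 against 482 and 457, and 156 and 452 in the sham arrays (3.37-fold higher after TAC, its 2 probes from -1.08 to 1.75). Eif2s3y, a translation factor gene on the Y chromosome, read 956 and 1075 in WT TAC, 136 and 139.6 in KO TAC and 976 and 125 in WT Sham and KO Sham, so that it was below background on all 3 KO arrays although every sample is labelled male. It was at least 6.61-fold lower in KO TAC. Neither Kdm5d nor Uty, also on the Y chromosome, passed (log2 0.07 and 0.43). Kdm5d read 180.3 and 165 against 162 and 192, and Uty 188 and 149 against 180.5 and 195. Both lay close to the background level, so that their not passing does not show equal levels. Xist had a probe but did not rise above background on enough arrays to be measured. The sex of the mice was not tested beyond these values. Nnt, a mitochondrial transhydrogenase that some C57 lines lack in part, was below background on both WT TAC arrays and at least 1.18-fold higher in KO TAC. Genotype and breeding background cannot be told apart for these genes.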

How the data were processed

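RNA of the left ventricle was hybridised to Illumina mouse bead arrays. The authors deposited 1 intensity per probe and array, on a linear scale and already quantile normalized between arrays (sorted values of the 6 arrays differed by at most 0.836%), and the deposited processing notes name GenomeStudio 2011.1. Further steps were not given in the sources used here. A second table with 6 value columns was not used, since its column names fit no sample.

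Of 45281 probes, 34885 carried 1 gene, 18 several and 10378 none in the platform annotation, and 34807 gene IDs were found in the reference table. Intensities were background corrected by the normal-exponential method (limma's nec, with olfactory, vomeronasal and taste receptor probes as negative controls, offset 16), taken to log2 and quantile normalized again. Lower bounds of folds were taken from the deposited intensities instead, so that they do not rest on the subtraction. Background was set per array at percentile 99 of those receptor probes. Probes that exceeded it on 2 or more arrays were retained, and the brightest kept probe stood for a gene. A fit with 1 coefficient per group over the 6 arrays (limma 3.58.1, R 4.3.3) left 2 residual degrees of freedom, joined by 4.63 prior ones. P-values were adjusted by Benjamini-Hochberg over 9625 genes and called at 0.05 where all 4 array pairs agreed. Tested on simulated data of the same size, the fit found nearly all 4-fold and most 2-fold changes, each with the right sign. The simulated noise was independent and drawn from the fit's own prior, and a small part of the genes was changed. This checks the code and does not bear on the calls made here. Bead signals carry no counts, so the number of arrays limits the precision, and an exact permutation test of 2 against 2 cannot go below p = 0.333.

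Named genes were, among those called, the 20 with the widest fold and the 10 with the largest moderated t in each direction, the 4 widest members in each direction of each of 46 gene lists, all members of lists with 10 or fewer measured, and Kdm3a, Timp1, Nppa, Nppb, Myh6, Myh7, Fhl1 and Col1a2. The members, lists and rule were chosen with earlier results of these data known. Other genes printed were chosen after their values were seen. Replicate numbers did not pair the samples: deviations of same-numbered WT TAC and KO TAC arrays correlated at 0.047, and no label ties a number to a litter or a day. For the 13 alternatives, background correction, offset, filter, probe choice, arrays in the fit, replicate block, prior and test were changed, and each TAC array was left out in turn.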

Additional observations from a re-analysis of the deposited data

Results flagged for a closer look

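In 542 genes the KO minus WT difference was more positive after TAC than after sham operation, and in 810 genes it was more negative, by a limma interaction term at an adjusted p under 0.05. At an unadjusted p under 0.05 the counts were 1553 and 1524. The sham side of this test rests on 1 array of each genotype, which is assumed to vary as the TAC arrays do. Among the named genes, the difference between the 2 genotype differences was -6.06 ± 0.25 (SE, log2, adjusted p 0.000456) for AA467197, -5.06 ± 0.28 (SE, log2, adjusted p 0.000485) for Timp1, -5.29 ± 0.29 (SE, log2, adjusted p 0.000485) for Lox and 2.13 ± 0.30 (SE, log2, adjusted p 0.00834) for Acaa2.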

How the results depend on the processing

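The 2 arrays a group limit these calls, and 1 array decides many of them. With each TAC array left out in turn, 1038 to 1681 genes were higher and 1091 to 1645 lower, the lone array of a group being assumed to vary as the others do. Leaving out WT TAC replicate 2 gave the lowest count in each direction, 1024 and 1083 of them called with all arrays as well, and 31 of 57 list counts then moved by over 1.5 times, against 18 without WT TAC replicate 1, 9 without KO TAC replicate 1 and 6 without KO TAC replicate 2. The methods' t-test on the same values found 1 gene higher and 0 lower after Benjamini-Hochberg adjustment (1766 and 1604 at an unadjusted p under 0.05), and 0 over 2-fold in either direction. It draws on each gene's own 2 residual degrees of freedom. Genes over 2-fold higher numbered 245 without further background correction and 387 with an offset of 50, and those over 2-fold lower 455 without further correction and 548 with genes above background on all 4 arrays. No further correction and the larger offset shrink the folds of dim genes, and the stricter filter drops such genes, by construction.

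The replicate number as a block gave 2121 genes higher and 1928 lower, 2019 and 1843 of them shared with the fit without it. Among the 296 named genes the block ended the calls of Kdm3a and Entpd4, brought in 1 and changed no other.

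Averaged over their kept probes, Smad5 stood at -0.218, Acta2 at 0.093 and Ide at 0.099 on the log2 scale, on the other side of 0 from the brightest probe. Some genes that had not passed changed sign with the array left out, and their log2 differences then ranged from -0.239 to 0.197 for Acta2, from -0.341 to 0.05 for Pdgfrb, from -0.392 to 0.245 for Cd79b, from -0.113 to 0.029 for Hba-a1, from -0.489 to 3.09 for Hbb-b2 and from -0.073 to 0.513 for Mbp. For Mb the range was -0.054 to 0.058, for Kdm5d -0.229 to 0.369, for Uty -0.017 to 0.884 and for Setdb1 -0.13 to 0.202. The cause was not tested. Among named genes, WT TAC replicate 2 ended 46 calls when left out, WT TAC replicate 1 ended 35, KO TAC replicate 1 ended 19 and KO TAC replicate 2 ended 17.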

Other observations

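Of the kept probes, 2242 carried no single gene in the annotation, and 402 of these were higher and 354 lower in KO TAC by the same test. Among 3392 genes with more than 1 kept probe, 1448 were called, and in 1257 of those (86.8%) all kept probes ran in the called direction. WT TAC replicate 2 lay farther from the KO TAC mean than WT TAC replicate 1 in 1260 of the 2077 higher genes (60.7%) and in 1261 of the 1884 lower genes (66.9%).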
